A study of Mus musculus with 6 samples.

Results

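The Klf genes encode Krüppel-like factors, and the chromatin around 9 of them (Klf2, Klf3, Klf4, Klf5, Klf6, Klf7, Klf9, Klf10 and Klf13) was examined by ATAC-seq in mouse leukemia cells from recipients given oil or given tamoxifen to delete 1 copy of Usp18 in these cells. ATAC-seq uses the Tn5 transposase to cut open chromatin, so the number of sequenced tags in a peak measures how accessible that stretch of DNA is. A peak was counted for a Klf gene when the annotation in the peak table named that gene as the nearest one and the peak lay at most 100000 bp from its transcription start site (TSS). This gave 245 of 175929 peaks, of which 179 were distal (more than 3000 bp from the TSS) and 66 were promoter-proximal (3000 bp or less). The nearest gene is not always the gene a peak acts on.

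The cells carried the fusion oncogene AML1-ETO 9a (AE9a), delivered on a GFP-marked retrovirus into fetal liver cells that were Usp18+/f and held a Cre recombinase switched on by tamoxifen. Recipients of the transplanted leukemia were injected with oil or with tamoxifen. The oil group was Usp18+/f (n = 3 libraries, replicates 1, 2 and 4) and the tamoxifen group Usp18+/Δ (n = 3, replicates 1, 3 and 4). Lin- c-Kit+ GFP+ cells were sorted from the spleen 3 days after the first injection. The recipients were irradiated C57BL/6 mice of both sexes aged 8 to 12 weeks, so host cells remained possible in the spleen. The leukemia cells of both groups came from the same kind of AE9a cell, with the Cre transgene and 1 floxed Usp18 allele, which is the allele tamoxifen recombines. Oil-treated cells received no tamoxifen, so the drug, Cre activity and loss of the Usp18 allele cannot be told apart. USP18 removes the ubiquitin-like modifier ISG15 from proteins and restrains type I interferon signaling.

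Krüppel-like factors bind CACCC and GC boxes in promoters and enhancers through the zinc fingers at their carboxy terminus. Members differ mainly in the amino-terminal part, which recruits partners. KLF2, KLF4, KLF5, KLF6 and KLF7 act largely as activators through p300 and CBP, KLF3 is a repressor that binds CtBP, and KLF9, KLF10 and KLF13 belong to the Sin3-binding branch of the family. In blood, they are known for roles in lineage choice, quiescence and inflammatory responses.

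None of the 245 Klf peaks passed the test for a difference between tamoxifen and oil. Summed over its peaks, accessibility was higher in all 3 tamoxifen libraries than in all 3 oil libraries for Klf2 and Klf5 and lower for Klf3. Of all 19781 genes with a peak within the same distance, 18.5% were higher in this way and 9.54% were lower, so separated groups were common. The Klf2 sum includes 11 peaks in introns of another gene, Eps15l1, and without them its groups overlapped. Along the first intron of Klf7, the values of 2 of the tamoxifen libraries were well below oil and those of tamoxifen replicate 4 were near it. Downstream of Klf6, tamoxifen replicate 4 alone had far fewer tags than the other libraries over several neighboring peaks.

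The DNA under 6 peaks is shown because the values described below turn on the first 4, and because the last 2 hold the family's own CACCC box: 1 is the peak with the most boxes at Klf13, the gene with the most such peaks, and 1 is the only Klf peak whose central 200 bp hold both a CACCC and a GC box. Sequence was read from the mouse genome GRCm38.p6 (the mm10 coordinates used by the files) and is given 5′ to 3′ on the strand of the Klf gene. Capitals mark matches to any of 9 motifs searched on both strands: the CACCC box (CCACACCC), the GC box (GGGGCGGG), the RUNX site of the core-binding factor (TGTGGTT), the AP-1 site of Fos and Jun proteins (TGANTCA), the GATA factor site (AGATAA), the PU.1 site (AGAGGAAG), a site like the interferon-stimulated response element or ISRE (GAAANNGAA), a heat shock factor pair (GAANNTTC) and the STAT site (TTCNNNGAA). The first pair lies in intron 1 of Klf3, the third in intron 1 of Klf7, the fourth is the part of the Klf5 start-site peak upstream of the annotated transcript, the fifth lies upstream of Klf13 and the sixth in intron 1 of Klf13.
Klf3 +7865 bp, chr5:64811278-64811499, plus strand: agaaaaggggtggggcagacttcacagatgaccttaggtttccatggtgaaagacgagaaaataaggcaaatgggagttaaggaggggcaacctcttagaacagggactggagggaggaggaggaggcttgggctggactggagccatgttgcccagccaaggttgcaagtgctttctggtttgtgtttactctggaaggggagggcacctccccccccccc
Klf3 +8351 bp, chr5:64811763-64811986, plus strand: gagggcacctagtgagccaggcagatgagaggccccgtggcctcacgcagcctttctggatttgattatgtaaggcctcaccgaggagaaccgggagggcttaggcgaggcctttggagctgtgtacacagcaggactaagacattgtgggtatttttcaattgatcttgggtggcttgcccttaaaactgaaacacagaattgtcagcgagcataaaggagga
Klf7 +3197 bp, chr1:64118083-64118301, minus strand: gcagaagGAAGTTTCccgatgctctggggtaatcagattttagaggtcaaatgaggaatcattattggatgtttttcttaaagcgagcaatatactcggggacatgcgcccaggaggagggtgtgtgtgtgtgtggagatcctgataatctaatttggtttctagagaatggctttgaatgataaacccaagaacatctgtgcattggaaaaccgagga
Klf5 -79 bp, chr14:99298488-99298690, plus strand: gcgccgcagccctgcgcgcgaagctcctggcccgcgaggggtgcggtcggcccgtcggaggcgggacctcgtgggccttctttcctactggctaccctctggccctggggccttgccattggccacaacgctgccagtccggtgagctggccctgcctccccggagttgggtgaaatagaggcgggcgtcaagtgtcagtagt
Klf13 -8829 bp, chr7:63947611-63947877, minus strand: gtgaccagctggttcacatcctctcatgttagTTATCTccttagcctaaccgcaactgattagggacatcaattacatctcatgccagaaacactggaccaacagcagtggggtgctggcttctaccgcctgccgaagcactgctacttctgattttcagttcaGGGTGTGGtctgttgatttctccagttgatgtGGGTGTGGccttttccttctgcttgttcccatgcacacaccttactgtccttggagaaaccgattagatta
Klf13 +2302 bp, chr7:63936503-63936724, minus strand: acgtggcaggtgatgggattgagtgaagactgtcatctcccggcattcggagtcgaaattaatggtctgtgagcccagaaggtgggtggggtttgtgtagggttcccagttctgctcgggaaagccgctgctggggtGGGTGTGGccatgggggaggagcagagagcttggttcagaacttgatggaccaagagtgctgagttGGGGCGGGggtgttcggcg

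Neither Klf3 sequence and not the Klf5 sequence held any of the 9 motifs in these letters, and the Klf7 sequence held 1 heat shock pair at bases 8 to 15. The distal Klf13 peak held 2 CACCC boxes in reverse orientation, at bases 165 to 172 and 197 to 204, and a reverse GATA match. The promoter-proximal Klf13 peak held a CACCC box at bases 138 to 145 and a GC box at bases 204 to 211. In 200-bp windows centered on the peaks, 12 of 179 distal Klf peaks (6.70%) held a CACCC box against 3.72% of all distal peaks on the assembled chromosomes, and 3 of 66 promoter-proximal Klf peaks (4.55%) held one against 3.16% of all. The GC box was in 15.2% of the promoter-proximal Klf peaks and 11.3% of all. RUNX matches, the motif of the AML1 part of the fusion, were in 13 distal Klf peaks (7.26%, against 7.89% of all) and in 0 of the 66 promoter-proximal ones (against 4.68% of all). The other motifs were in 3.35% to 15.6% of the distal Klf peaks and 1.52% to 6.06% of the promoter-proximal ones, beside 2.28% to 17.6% and 3.49% to 9.53% of all. These are counts of letters and say nothing of binding.

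The 15 Klf peaks with a CACCC box were spread over 7 of the 9 genes, with 5 at Klf13, 3 at Klf3, 2 each at Klf9 and Klf10 and none at Klf5 or Klf6. Their log2 fold changes ran from -0.53 to 0.41 with a median of -0.15, and no one of them passed the test. The intronic Klf13 peak printed above had 217, 251 and 207 tags in oil and 177, 182 and 209 in tamoxifen, and the upstream one had 51.2, 49.2 and 44.5 in oil and 32.6, 40.2 and 49.6 in tamoxifen. In both, the groups overlapped through tamoxifen replicate 4.

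The 6 libraries held 57358371 to 74667821 tags, of which 17498115 to 21085920 lay in peaks. Tamoxifen replicate 4 stood apart from the other tamoxifen libraries: on the first principal component of all peaks, which held 47.4% of the variance, the oil libraries lay between -72.2 and -64.8, tamoxifen replicates 1 and 3 at 93.6 and 121, and tamoxifen replicate 4 at -11.5. Over the 245 Klf peaks alone, the first component (40.6%) placed tamoxifen replicates 1 and 3 at 4.24 and 2.39, the oil libraries between -1.41 and 0.11 and tamoxifen replicate 4 at -4.14. Its genotype is given here as Usp18+/Δ because it belongs to the tamoxifen group. These peaks do not check whether the allele was lost in it as in the other tamoxifen libraries. Where the groups overlapped through this library, the value without it is given for the peak of smallest p of a gene. Other Klf peaks that passed the test without it are named too, also where the groups did not overlap. Leaving out the library that joins the groups favors a smaller p, so p-values without it are a description only. Of the marker genes of the sorted leukemia cell (Kit, Cd34, Myb, Mpo, Runx1, Spi1, Gfi1b and Flt3), 8 of 8 had a peak within 3000 bp of a start site, with 8547 to 8656 summed normalized tags in oil and 8443 to 9568 in tamoxifen. Of their 42 peaks, 2 passed the test, both higher (DESeq2), beside 1.34% of all promoter-proximal peaks that passed in either direction. Mature myeloid markers had a peak at 4 of 8 genes, with none at Csf1r, S100a8, S100a9 or Ly6g (418 to 465 in oil, 453 to 473 in tamoxifen), and T cell markers at 5 of 8, with none at Cd3d, Cd2 or Cd28 (668 to 824 and 621 to 713). B cell markers had a peak at 3 of 8, with none at Cd79b, Ms4a1, Pax5, Blk or Cd22 (732 to 831 and 713 to 886), and NK cell markers at 1 of 5, with none at Ncr1, Klrb1c, Klra8 or Prf1 (95.6 to 120.2 and 110.8 to 133). The peak at the Usp18 start site had 411 to 453 tags in oil and 444 to 467 in tamoxifen, which does not check the deletion, since the floxed part is not given in the sources used here.

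The start-site peaks, the promoters proper, were open at all 9 genes. Per kb of peak and as the mean of the oil libraries, the order of normalized tags was Klf7 (4204), Klf10 (3825), Klf13 (3727), Klf6 (3524), Klf3 (3416), Klf9 (3084), Klf5 (2498), Klf2 (2400) and Klf4 (833). The oil libraries of Klf10 and Klf13, of Klf13 and Klf6, of Klf6 and Klf3, and of Klf5 and Klf2 overlapped in range, whereas the lowest oil library of Klf7 (3968 to 4454) lay above the highest of Klf10 (3682 to 3956). Within a library, Klf10 was above Klf13 and Klf6 above Klf3 in all 6 libraries, while Klf13 and Klf6 changed places in tamoxifen replicate 3 and Klf5 and Klf2 in oil replicate 4. Klf4, the reprogramming factor that also drives monocyte differentiation, was the lowest, with 765 to 890.4 in oil and 804 to 982 in tamoxifen. The order was the same in the tamoxifen means.

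**Figure D1:**
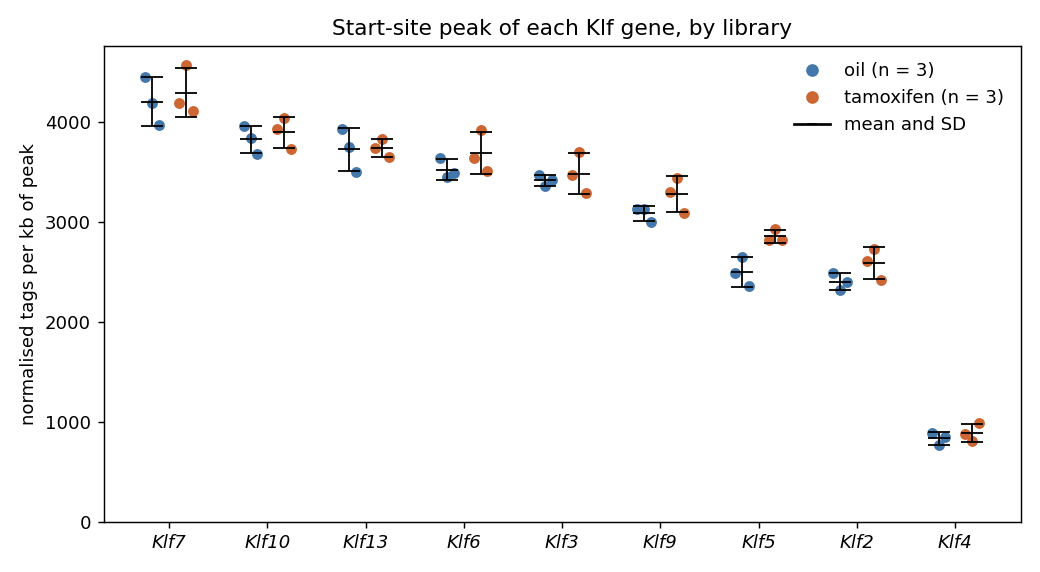
Normalized tags per kb of the start-site peak of each Klf gene (vertical axis) for 3 oil and 3 tamoxifen libraries, with points for libraries and bars for mean and SD. Klf7 is highest and Klf4 lowest in both groups, and only at Klf5 do the 3 tamoxifen libraries (2816 to 2930) lie above all oil libraries (2354 to 2648).

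Of the 9 start-site peaks, 8 had overlapping groups, with log2 fold changes (tamoxifen over oil) between 0.01 and 0.11 and 95% intervals within -0.11 to 0.29. The largest of these was Klf2 at 0.11 (95% interval -0.04 to 0.25). All of them lay within 2-fold in both directions. The signs for Klf3, Klf7, Klf10 and Klf13 turned negative when libraries were scaled by the tags in all peaks, the lowest at -0.02, so no direction is given for them.

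Each peak was tested with DESeq2 in a fit of all distal or all promoter-proximal peaks. Of the 179 distal Klf peaks, 0 passed an adjusted p of 0.05 (DESeq2; 1.41% of all distal peaks did) and 0 passed with a fold change over 2 as well (0.851% of all). Of the 66 promoter-proximal Klf peaks, 0 passed (1.34% of all) and 0 passed with a fold change over 2 (0.385% of all). The smallest adjusted p was 0.154 among distal Klf peaks and 0.115 among promoter-proximal ones (DESeq2).

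At an unadjusted p under 0.05, 2 distal Klf peaks were higher with tamoxifen (6.63% of all distal peaks were) and 9 were lower (3.31% of all). Among promoter-proximal Klf peaks 4 were higher (5.55% of all) and 4 were lower (3.15% of all). Counting peaks whose 3 tamoxifen libraries did not overlap the 3 oil libraries gave 8 higher (12.5% of all) and 17 lower (10.6% of all) among the 179 distal peaks. It gave 5 higher (9.78% of all) and 2 lower (9.09% of all) among the 66 promoter-proximal ones. The median log2 fold change was -0.03 for the distal Klf peaks and -0.01 for the promoter-proximal ones, beside 0.00 for all peaks of either class. It was negative for 50.6% of all distal and 48.8% of all promoter-proximal peaks. Counts of signs by gene, given below, are over neighboring peaks that are not independent. For 205 of the 245 the 95% interval of the fold change lay within 2-fold in both directions. For the others, the interval reached past 2-fold in at least 1 direction.

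A second tool made a few calls. With edgeR's quasi-likelihood test, 2 distal Klf peaks passed an adjusted p of 0.05, both lower and both in intron 1 of Klf3 (2.98% of all distal peaks passed), and 2 promoter-proximal ones passed, both higher and both at Klf5 (2.42% of all).

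**Figure D2:**
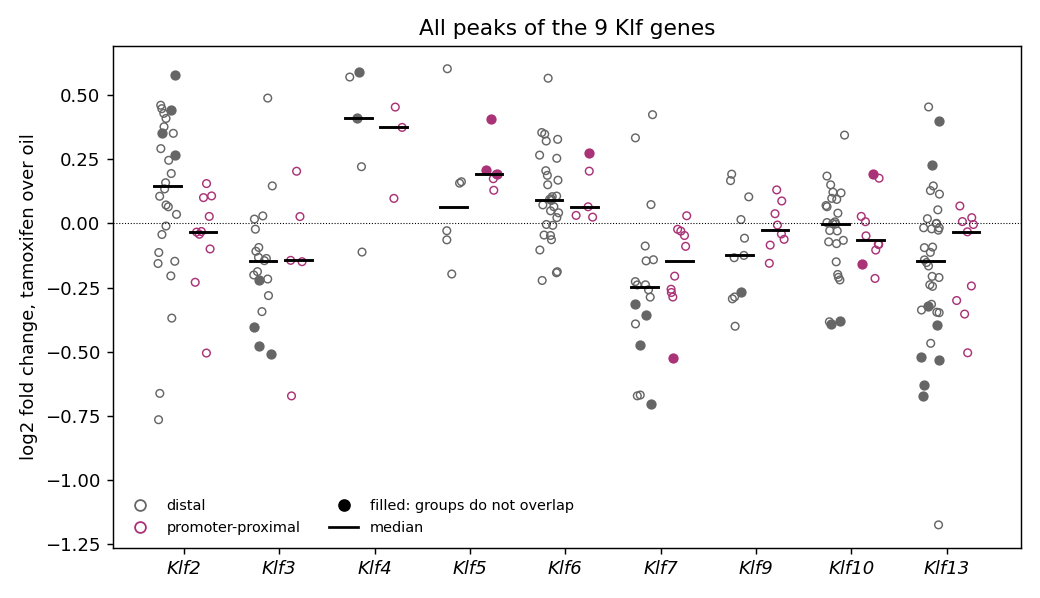
Log2 fold change (tamoxifen over oil) of each of the 245 peaks, by gene, in gray for distal and purple for promoter-proximal peaks, with filled points where the 3 tamoxifen libraries do not overlap the 3 oil libraries and black bars for medians. Klf7, Klf3 and Klf13 have most points below 0 and Klf4 and Klf2 (distal) and Klf5 (promoter-proximal) most above 0, and no point passed the DESeq2 test. Of the distal Klf2 points above 0, 10 lie in introns of Eps15l1.

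Among the activators, Klf5, a factor of proliferating epithelia and of granulocyte development, had tamoxifen libraries close to one another. Its start-site peak had 620.5, 659 and 586 normalized tags in the oil libraries and 701, 729 and 702 in the tamoxifen libraries. Every tamoxifen library was above every oil library, with a log2 fold change of 0.19 (95% interval 0.06 to 0.32, adjusted p = 0.147, DESeq2). The peak with the smallest adjusted p of all Klf peaks lay in exon 2 of Klf5, at +2993 bp (chr14:99301573-99301796).

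That exonic Klf5 peak had 152, 205 and 169 tags in oil and 232, 238 and 228 in tamoxifen. The groups did not overlap, and the tamoxifen libraries varied less (233 ± 4.85) than the oil ones (175 ± 26.7; SD, n = 3 each). The log2 fold change was 0.41 (0.14 to 0.67, adjusted p = 0.115, DESeq2), and edgeR called both Klf5 peaks (adjusted p = 0.036 for the exonic peak and 0.0424 for the start-site peak).

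All 6 promoter-proximal Klf5 peaks, from -79 to +2993 bp, had a positive log2 fold change, from 0.13 to 0.41. Their summed tags were 1345, 1462 and 1244 in oil and 1555, 1564 and 1545 in tamoxifen, so each tamoxifen library was above each oil library. Tamoxifen replicate 4 did not stand apart here: the 3 tamoxifen libraries were at 1.15, 1.16 and 1.14 times the oil mean. The 6 distal Klf5 peaks were weak, with oil means of 15.3 to 57.5 tags, and 3 had positive and 3 negative log2 fold changes.

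A few genes had a peak elsewhere in the genome whose log2 tags followed the exonic Klf5 peak most closely over the 6 libraries, among peaks with a mean of 50 or more tags. They were Tmem104 (Pearson r = 0.996), Bahcc1 (0.996) and 1700064M15Rik (0.994), none of which passed the DESeq2 test. With 6 points that share their libraries and scaling and a search over all peaks, these values are a description only.

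Klf2, the factor that keeps naive lymphocytes quiescent and endothelium in a resting state, had 38 peaks, from -37385 to +49238 bp. Of its 28 distal peaks, 19 had a positive log2 fold change, with a median of 0.15. Those 19 include 10 of the 11 peaks in introns of Eps15l1 described below. The 20 intergenic peaks counted for Klf2, distal or promoter-proximal, had 9 positive and 11 negative values, with a median of -0.02. The peak just past the gene at +3770 bp had 111, 103 and 99.6 tags in oil and 128, 167 and 132 in tamoxifen (log2 fold change 0.44, 0.06 to 0.82, adjusted p = 0.36, DESeq2). The groups did not overlap.

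A block of 11 peaks between +28812 and +49238 bp counted for Klf2 lies within introns of Eps15l1, a gene of endocytosis. There, 10 of the 11 log2 fold changes were positive, with a median of 0.27. The summed tags of the block were 789, 858 and 814 in oil and 1002, 1080.0 and 900.4 in tamoxifen, and replicate 4 was the lowest of the tamoxifen libraries at 1.10 times the oil mean. Its highest peak, at +46972 bp (chr8:72365926-72366143), had 196, 197 and 189 tags in oil and 234, 263 and 203 in tamoxifen. Neighboring peaks of 1 locus are not independent, and the block was chosen after its values were seen, so it has no test.

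Over all of its peaks, Klf2 had 2546, 2568 and 2565 summed tags in oil and 2706, 2946 and 2760 in tamoxifen, a difference of 0.13 on the log2 scale with no overlap. This sum includes the block in Eps15l1, and without those 11 peaks the groups overlapped. The 10 promoter-proximal peaks of Klf2 also overlapped when summed, with a difference of 0.03. Klf2 is strongly expressed in endothelium, and 2 of 6 endothelial marker genes had a peak, Cdh5 and Kdr, while Pecam1, Tek, Vwf and Emcn had none. The summed tags of those markers were 199.9 to 237 in oil and 273 to 312 in tamoxifen. The cells were sorted for c-Kit and GFP, and how many host endothelial cells remained is not known from these data. The part of these markers in the Klf2 values was not tested.

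Klf4 had only 8 peaks, and 7 of the log2 fold changes were positive, with a median of 0.39. Its distal peak at +43575 bp had 33.4, 33.5 and 35.6 tags in oil and 46.0, 51.3 and 56.9 in tamoxifen (log2 fold change 0.59, 0.03 to 1.15, adjusted p = 0.447, DESeq2). The groups did not overlap, but the whole distal signal of Klf4 was small: its 5 distal peaks summed to 154, 154 and 171 tags in oil and 203, 198 and 216 in tamoxifen. The start-site peak overlapped between groups.

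Klf6, an immediate-early gene of injury and of inflammatory macrophages, had 35 peaks, and its accessible chromatin ran without large gaps from -686 to +20752 bp, through the transcribed part and beyond it. The 2 promoter peaks hardly varied among libraries: the start-site peak had 731, 693 and 700.4 tags in oil and 732, 787 and 705 in tamoxifen. Past the start site, the 3 tamoxifen libraries parted. Over the 15 peaks from +1012 to +9134 bp the summed tags were 2085, 1713 and 1974 in oil, and 1626, 2382 and 2543 in tamoxifen.

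Tamoxifen replicate 4 was above the oil mean at 15 of these 15 Klf6 peaks, replicate 3 at 13 and replicate 1 at 3. The smallest p among Klf6 peaks was in intron 1 at +2959 bp, with 261, 227 and 272 tags in oil and 279.5, 311 and 327 in tamoxifen (log2 fold change 0.27, 0.06 to 0.49, adjusted p = 0.324, DESeq2). Without tamoxifen replicate 1, another intron 1 peak at +1874 bp passed the test (log2 fold change 0.41, adjusted p = 0.0452, DESeq2). In that fit, 192 of all 45183 promoter-proximal peaks tested were called higher and 28 lower. With all libraries, the +1874 bp peak had 435, 366 and 439 tags in oil and 328, 576 and 524 in tamoxifen. Replicate 1 was thus below and replicates 3 and 4 above every oil library. The groups overlapped through the library left out, so its removal favored a smaller p.

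Farther downstream the order of the libraries at Klf6 turned over. Across 7 peaks from +16628 to +20752 bp, the summed tags were 1014, 868 and 943 in oil, 1085 and 1141 in tamoxifen replicates 1 and 3, and 482 in tamoxifen replicate 4, which was 0.512 times the oil mean. Relative to the oil mean of each peak, replicate 4 went from -0.57 at +16628 bp to -1.11 at +18447 bp, -1.41 at +19200 bp and -2.12 at +20752 bp on the log2 scale. At the last of these it had 11.0 tags, against 46.8, 49.2 and 48.0 in oil and 69.1 and 43.5 in the other tamoxifen libraries.

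The same library was above the oil mean at all 11 Klf6 peaks just before this stretch, from +10202 to +15193 bp, with a median of 0.44 on the log2 scale. At 4 of the 245 Klf peaks, tamoxifen replicate 4 was at less than 0.5 times the lowest of the other 5 libraries, and all 4 lay in this stretch. That is 1.63% of the Klf peaks, against 0.152% of all 175929 peaks for the same library. The 4 peaks neighbor each other and count as 1 place. Because 2 tamoxifen libraries were above oil there and 1 far below, the fitted fold changes of these 7 peaks were near 0, with a median of -0.06.

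**Figure D3:**
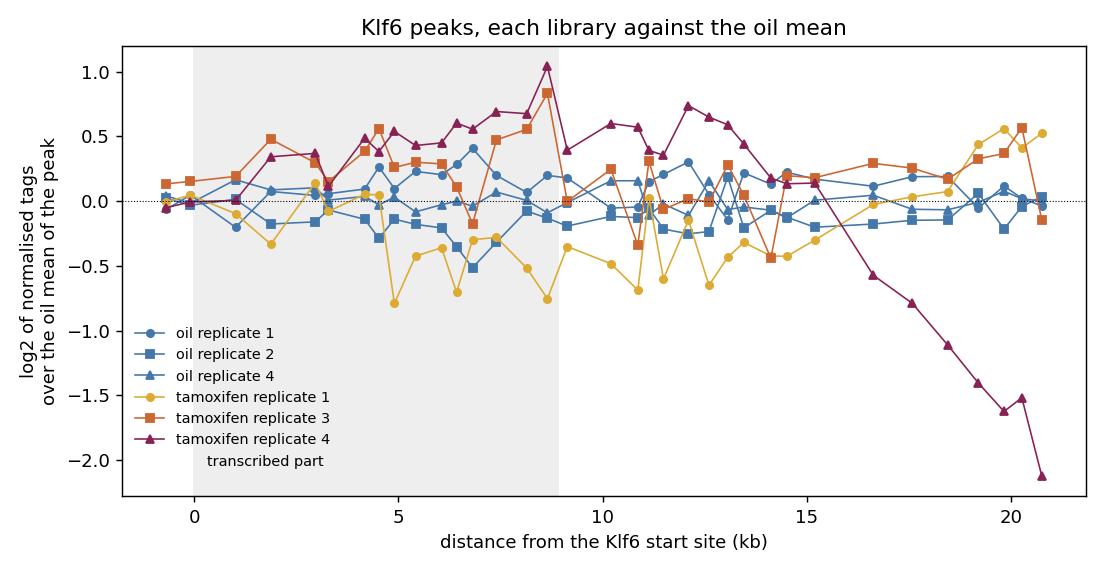
Log2 ratio of normalized tags to the oil mean of each peak (vertical axis) for every library at the 35 Klf6 peaks, by distance from the start site in kb, with the transcribed part shaded. Libraries lie together at the start site, tamoxifen replicate 4 is highest over most of the gene and up to 15 kb, and it then drops to -2.12 at the last peak while the other 5 libraries stay near or above the oil mean.

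Klf7, which is best known from developing neurons, had mostly lower values with tamoxifen. Of its 28 peaks, 24 had a negative log2 fold change, and 20 of the 22 in introns did, with a median of -0.26 for the intronic ones. Its 2 promoter peaks did not share this. The start-site peak had 1216, 1144 and 1083 tags in oil and 1144, 1248 and 1123 in tamoxifen, a log2 fold change of 0.03 (-0.08 to 0.14).

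The Klf7 peak of smallest p, the intron 1 peak at +3197 bp printed above, had 180.5, 132 and 144 tags in oil. In tamoxifen it had 72.9 and 65.8 in replicates 1 and 3 and 146 in replicate 4. The first 2 were below every oil library and replicate 4 was inside the oil range, so that the groups overlapped (log2 fold change -0.67, -1.17 to -0.17, adjusted p = 0.219, DESeq2). The peak at +22385 bp (chr1:64098864-64099145) had the same form, with 120.3, 98.4 and 128 tags in oil and 59.5, 49.1 and 108 in tamoxifen.

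Without tamoxifen replicate 4, both Klf7 peaks passed the test, at log2 fold changes of -1.13 (adjusted p = 7.0e-05) and -1.09 (adjusted p = 0.00084, DESeq2). In that fit, 1.64% of all distal peaks were called lower and 2.53% higher. Both Klf7 peaks overlapped between groups through the library left out, so its removal favored a smaller p. The distal Klf7 peak with the most tags per kb, at +36480 bp, had 212, 215 and 219 tags in oil and 175, 138 and 190.1 in tamoxifen, with no overlap (log2 fold change -0.35, -0.69 to -0.02, adjusted p = 0.443, DESeq2). Summed over the 16 distal peaks of the intron, the oil libraries had 1251, 1243 and 1253 tags and the tamoxifen libraries 970.4, 875 and 1158. Those are 0.777, 0.700 and 0.927 times the oil mean.

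Klf3, a repressor of the family that is active in erythroid and B cell development, had lower values along a stretch of intron 1. Here 13 of 14 intronic peaks had a negative log2 fold change, with a median of -0.18. Being neighbors, these peaks are not independent of one another. The peak of smallest p, at +7865 bp and printed above, had 197, 195 and 181 tags in oil and 130.4, 115 and 156 in tamoxifen, with all tamoxifen libraries below all oil libraries. The log2 fold change was -0.51 (-0.85 to -0.16, adjusted p = 0.154, DESeq2).

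The next Klf3 peak, at +8351 bp, had 196, 191 and 194 tags in oil and 148, 114 and 154 in tamoxifen, again with no overlap and a log2 fold change of -0.48. Both peaks were called by edgeR (adjusted p = 0.033 and 0.0405) and, without tamoxifen replicate 4, by DESeq2 (adjusted p = 0.0166 and 0.0472). Further along, the peaks at +8788 and +9532 bp did not overlap either, while the distal Klf3 peak with the most tags per kb, at +9265 bp between them, had 309.7, 325 and 297 in oil and 299, 283 and 281 in tamoxifen, a log2 fold change of -0.11.

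Over the 6 peaks from +7185 to +9532 bp, Klf3 had 1285, 1268 and 1199 summed tags in oil and 1036, 963 and 1088 in tamoxifen. These are 0.829, 0.770 and 0.870 times the oil mean, so tamoxifen replicate 4 shared the lower value here. The Klf3 start-site peak, some 8 kb upstream, had 882, 854 and 867 tags in oil and 881, 939 and 836 in tamoxifen. As at Klf7, the intron and the promoter of the same gene thus had different values.

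**Figure D4:**
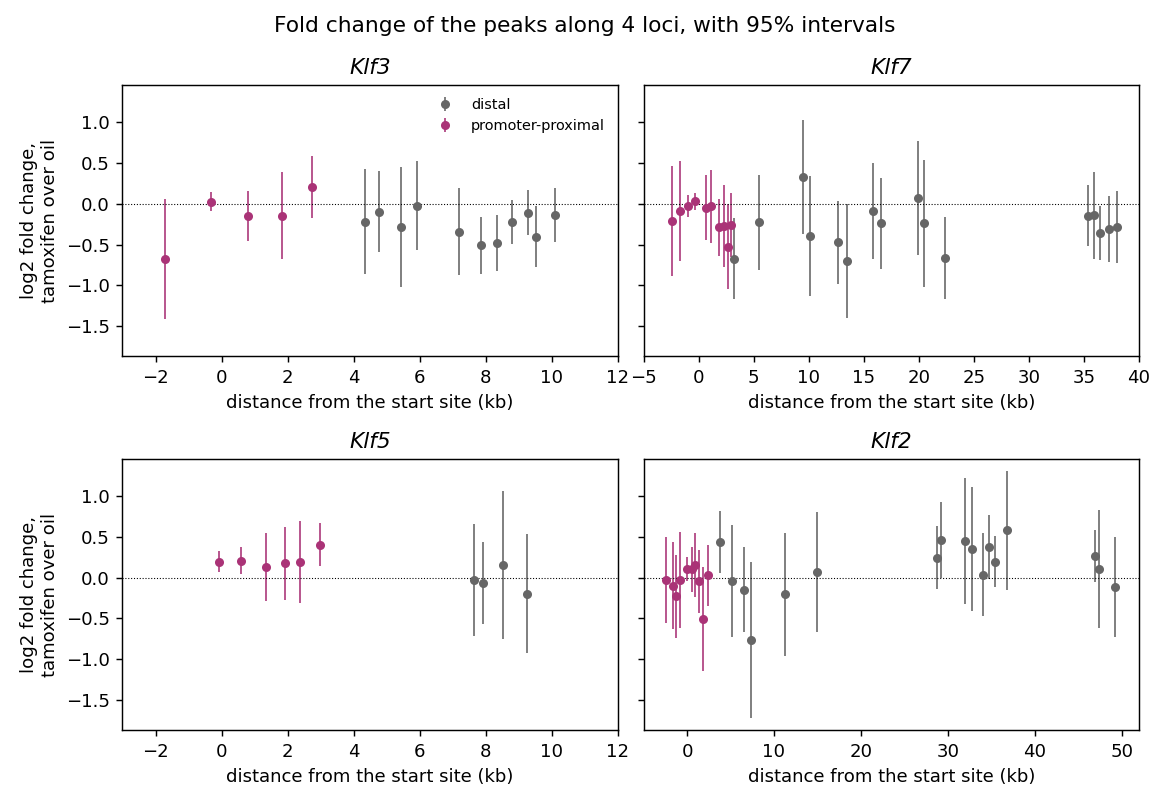
Log2 fold change (tamoxifen over oil, points) with its 95% interval (bars) for the peaks along Klf3, Klf7, Klf5 and Klf2, by distance from the start site in kb, in gray for distal and purple for promoter-proximal peaks. At Klf3 and Klf7 the start-site peaks lie at 0.03 and the intronic peaks mostly below 0, at Klf5 all promoter-proximal peaks lie above 0, and at Klf2 the block near 30 to 47 kb lies mostly above 0.

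In the Sin3-binding branch, Klf13, a factor first known as an activator of the chemokine gene Ccl5 in T cells, had 45 peaks, of which 34 lay in intergenic DNA upstream of the gene. Of those 34, 26 had a negative log2 fold change, with a median of -0.19, and peaks of 1 locus are not independent. The peak of smallest p, at -85492 bp, was listed as a peak in the oil set alone and had 34.5, 27.6 and 17.8 tags in oil and 9.59, 6.69 and 18.4 in tamoxifen. The groups overlapped through tamoxifen replicate 4 (log2 fold change -1.17, -2.07 to -0.28, adjusted p = 0.241, DESeq2).

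Without tamoxifen replicate 4, 3 Klf13 peaks passed the test, at -85492, -58056 and -2353 bp, all lower (adjusted p = 0.0489, 0.0441 and 0.0372, DESeq2), the first at a log2 fold change of -1.69. Not all of the upstream region went that way. A pair of adjacent peaks at -73065 and -72800 bp had higher values in all tamoxifen libraries: the second had 84.7, 65.9 and 80.1 tags in oil and 110.3, 95.9 and 97.4 in tamoxifen (log2 fold change 0.40). Just beside them, the peak at -71072 bp, which holds a CACCC box, had 31.2, 39.4 and 32.0 in oil and 24.9, 20.1 and 25.7 in tamoxifen (-0.53).

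Klf10, the TGF-beta-inducible early gene, had 36 peaks and 16 positive and 20 negative log2 fold changes, with a median of -0.02. Its peak of smallest p, at -1618 bp, had 481, 504 and 472 tags in oil and 411, 369 and 472 in tamoxifen, with tamoxifen replicate 4 at the lowest oil value (log2 fold change -0.21, adjusted p = 0.322, DESeq2). Without that library the log2 fold change was -0.31 (adjusted p = 0.0746, DESeq2). Klf10 also had the distal peak with the most tags per kb of the whole family, at -84109 bp (chr15:38384717-38384923), with 445, 474 and 418 tags in oil and 453, 459.6 and 489.6 in tamoxifen. That peak overlapped between groups (log2 fold change 0.07, -0.19 to 0.33).

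Klf9, a glucocorticoid-inducible member, had 19 peaks, all between -11104 and +3631 bp. Every one of the 19 had a 95% interval within 2-fold, and the log2 fold changes ran from -0.40 to 0.19. The peak of smallest p, at +3047 bp, which also holds a CACCC box, had 80.2, 100.4 and 103 tags in oil and 57.5, 63.6 and 93.7 in tamoxifen (log2 fold change -0.40, adjusted p = 0.61, DESeq2). Without tamoxifen replicate 4 the log2 fold change was -0.65 (adjusted p = 0.124, DESeq2). Its distal peak with the most tags per kb, at -5170 bp, had 566, 523 and 521 tags in oil and 558, 614 and 558 in tamoxifen, so the groups overlapped.

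**Figure D5:**
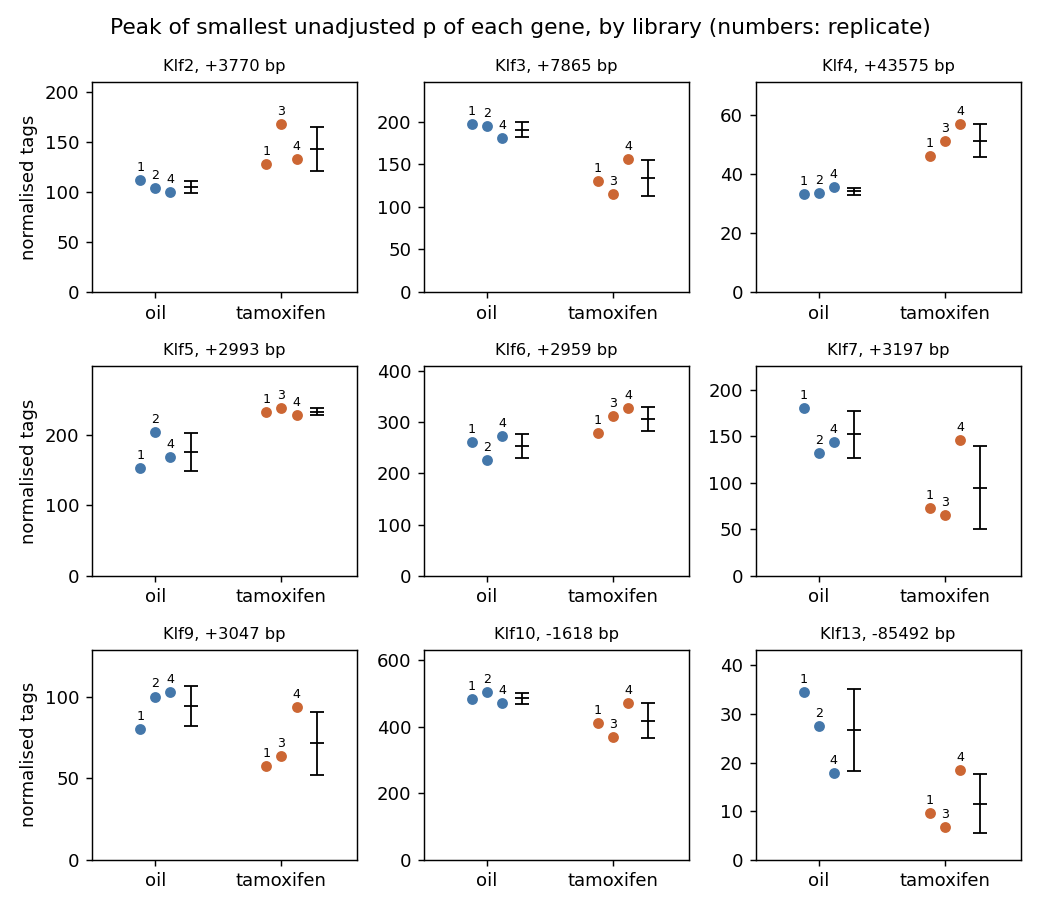
Normalized tags (vertical axes from 0) of the peak with the smallest unadjusted p at each of the 9 Klf genes, for each oil and tamoxifen library labeled by its replicate number, with mean and SD as bars. Groups do not overlap at Klf2, Klf3, Klf4, Klf5 and Klf6, and at Klf7, Klf9, Klf10 and Klf13 tamoxifen replicate 4 lies among the oil libraries.

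Leaving tamoxifen replicate 4 out changed the counts of calls as a whole. In that fit, 6 distal Klf peaks were lower (1.64% of all distal peaks were) and 0 were higher (2.53% of all), the 6 being 2 each at Klf3, Klf7 and Klf13. Of the promoter-proximal Klf peaks, 1 was lower, at Klf13 (0.967% of all), and 0 were higher (1.53% of all).

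Summed over all its peaks, each gene was also compared between groups by an exact permutation test, in which 3 libraries against 3 cannot go below p = 0.1. Klf2 (0.13 on the log2 scale), Klf5 (0.19) and Klf3 (-0.12) reached that value, with no overlap between groups, which is 2 of 9 genes higher and 1 of 9 lower beside the 18.5% and 9.54% of all genes. The differences for Klf4 (0.20), Klf7 (-0.14) and Klf13 (-0.08) had exact permutation p = 0.2. Klf6 (0.08), Klf9 (0.01) and Klf10 (-0.03) had exact permutation p of 0.5 to 0.9. Over the distal peaks alone, Klf2 (0.21), Klf4 (0.36), Klf3 (-0.20) and Klf7 (-0.31) did not overlap between groups. Of all 16837 genes with a distal peak, 21.5% were higher and 8.72% lower in this way. The distal Klf2 sum also includes the 11 peaks in introns of Eps15l1, and without them its groups overlapped.

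Erythroid marker genes, which include the family member Klf1, had a peak at 7 of 8 genes (none at Hbb-bs), with 6472 to 6849 summed tags in oil and 6134 to 6325 in tamoxifen. Of their 34 peaks, 1 passed the test, lower (DESeq2), beside 1.34% of all promoter-proximal peaks that passed in either direction. In its summed tags, the erythroid list was thus lower in every tamoxifen library, as were Klf3 and distal Klf7, and its part in their values was not tested. In bulk cells, fewer cells of a type and less accessible DNA per cell cannot be told apart.

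The rest of the family and its Sp relatives, which bind the same GC-rich boxes, had 237 peaks. Of these, 3 passed the test with DESeq2: a peak at -68761 bp of Sp3 was lower (log2 fold change -0.96, adjusted p = 0.010), one at +3919 bp of Sp4 was lower (-0.87, adjusted p = 0.048) and one at -8828 bp of Sp9 was higher (1.21, adjusted p = 0.038). The Sp9 peak had 17.8, 15.7 and 19.6 tags in oil and 38.4, 37.9 and 46.8 in tamoxifen. All 3 were distal, 3 of 170, beside the 1.41% of all distal peaks, and none belonged to a Klf gene.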

How the data were processed

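ATAC-seq libraries were aligned by the authors to mm10 with Bowtie2, and HOMER was used to find peaks (style factor), merge them and count tags per peak in each library. The deposited values are estimated counts in steps of 0.5, with at most 3 tags kept per position and no scaling, and were rounded to whole numbers for the tests. Peak lists had been called per group, not per library.

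Peaks were taken for a Klf gene by the nearest gene and TSS distance in the table. Members and lists were chosen with earlier results of these data known. Distal and promoter-proximal peaks were fitted separately with DESeq2 1.42.0 (Wald test, size factors by median of ratios, Benjamini-Hochberg over all peaks of the class, all 6 libraries) in R 4.3.3. DESeq2 on distal peaks follows the study's methods, which also ask for a fold change over 2; the promoter-proximal fit and calls on adjusted p alone were added here. Normalized tags are counts divided by those size factors, and sums over a locus use size factors of all peaks. Alternatives were edgeR 4.0.16 (quasi-likelihood), other scalings, 1 fit of all peaks, a mean of at least 20 tags, limits of 50000 bp and 1000 bp, a replicate block and leaving out each library. The statistics were tested on simulated counts with the same spread setting for every peak. No simulated library stood apart as tamoxifen replicate 4 does, so the simulation does not cover that feature. The DNA under the peaks was read from GRCm38.p6, whose chromosomes held all peak ends, and the 245 TSS distances came out within 3 bp of a RefSeq start. Named for each gene were the peak nearest the TSS, the distal peak with the most tags per kb and the peak of smallest p. Blocks of neighboring peaks were chosen after their values were seen.

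The study gives 3 mice per group for the leukemia RNA-seq set that was paired with ATAC-seq. For ATAC-seq in general, without naming the cells, it gives 2 biological replicates. The labels, which list 3 libraries per group, do not tie them to mice. With fewer than 3 animals in a group, libraries would share one, and p-values measure only the spread between these libraries. Same-numbered libraries did not deviate together (correlation -0.04 for number 1 and 0.05 for number 4). Libraries of 57358371 to 74667821 tags gave a median of 45 to 57 tags per peak, and intervals for single peaks are correspondingly wide. The name and driver of the Cre transgene are not reported here.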

Additional observations from a re-analysis of the deposited data

How the results depend on the processing

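With edgeR, 2 distal and 2 promoter-proximal Klf peaks and 6 peaks of the other Klf and Sp genes passed, against 0, 0 and 3 with DESeq2. With the replicate block (numbers 1 and 4 only), 0 distal and 0 promoter-proximal Klf peaks and 0 peaks of the other Klf and Sp genes passed. With a fold change over 2 as well, 1 peak of the other Klf and Sp genes passed. Leaving out 1 library gave 0 to 6 distal Klf peaks (6 without tamoxifen replicate 4, 0 in the others), 0 to 1 promoter-proximal ones (1 without tamoxifen replicate 1 or 4) and 0 to 7 for the other Klf and Sp genes (7 without tamoxifen replicate 4, 0 in the others). Genes whose summed tags did not overlap numbered 3 to 7 (7 without oil replicate 4, 5 without tamoxifen replicate 4). Smaller groups separate more readily. The share of all genes was not computed with 1 library left out, so these counts cannot be set beside it. The cause was not tested; each of these fits has fewer libraries. The other scalings, the fit of all peaks, the mean of at least 20 tags and the distance limits left 0 Klf peaks past the test.

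Values near 0 changed sign. The summed tags of Klf9 were at -0.00393 on the log2 scale with scaling by tags in peaks and at -0.0247 to 0.0408 with 1 library left out, and those of Klf10 at 0.0347 over distal peaks alone. With scaling by tags in peaks, the start-site peaks of Klf3, Klf7, Klf10 and Klf13 had log2 fold changes of -0.00498, -0.002, -0.0044 and -0.0247, and Klf13 had -0.0125 in the fit of all peaks. With the replicate block they were -0.0311 for Klf3, -0.0213 for Klf7 and -0.00932 for Klf13, and 0.0938 for the Klf5 peak at +7925 bp and -0.0157 for the Klf6 peak at +3286 bp. With 1 library left out, the ranges were -0.0171 to 0.0681 (Klf3), -0.0172 to 0.0717 (Klf7), -0.00107 to 0.0591 (Klf10), -0.0377 to 0.0458 (Klf13) and -0.184 to 0.0436 (Klf5 at +7925 bp). Of the alternative values of named peaks, 246 kept direction and side of the threshold, 18 changed sign and 6 moved past the threshold.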
